A study of Mus musculus with 12 samples.

Results

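The genes of the red cell programme and of heme synthesis were followed as a listed set of 35 genes, in 7 groups by role: the adult globins, the membrane skeleton, the enzymes of heme synthesis, mitochondrial transporters, iron uptake receptors, blood group and channel proteins, and other enzymes and proteins of the erythroid programme. Of these 35 genes, 33 had a row in all 12 count files, out of 23385 genes that could be joined over the files. The genes Hbb-bs and Hbb-bt had no row under those names in 1 file and were left out of the tests. RNA was sequenced from sorted bone marrow cells of C57BL/6 mice in 4 groups of 3 libraries. The groups were wild-type LSK cells, wild-type common myeloid progenitors (CMP), and the same cell types from mice homozygous for loss of the Cebpa +42kb enhancer (Cebpa +42kb enhancer -/-, here called enhancer-null). No group carried a treatment, and ages and sort gates are not stated in the labels. They also do not say whether libraries of a group came from separate mice, so the p-values below measure the spread between these libraries.

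Heme is made from glycine and succinyl-CoA by a chain of enzymes that starts and ends in the mitochondrion, and red cell precursors run this chain at a high rate to fill globin. They take up transferrin-bound iron through the transferrin receptor Tfrc, import it into the mitochondrion, and assemble a spectrin and ankyrin skeleton under a membrane rich in the anion exchanger band 3 and in blood group proteins. LSK cells, named for lack of lineage markers with Sca-1 and Kit on the surface, include the stem cells, CMP are progenitors downstream of it, and the product of Cebpa is a DNA-binding factor that drives myeloid differentiation.

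The libraries held between 6170491 and 49149674 counts in rows that name a gene. Levels are given as CPM (counts relative to library size), scaled by the trimmed mean of M values (TMM) over the 12 libraries. Cebpa had 270 to 544 counts in wild-type CMP and 39 to 226 in wild-type LSK, against 0 to 3 in enhancer-null CMP and 0 to 15 in enhancer-null LSK. The 6 stem cell markers summed to 1078 to 1319 CPM in wild-type LSK and to 78.1 to 129 CPM in wild-type CMP. The 4 granulocyte-monocyte progenitor markers, Mpo among them, summed to 503 to 714 and 4693 to 5838 CPM in the same groups. In enhancer-null LSK the stem cell markers summed to 352 to 445 CPM, below each wild-type LSK library. By Xist and Y-linked genes the libraries numbered 1 and 2 of the enhancer-null mice and number 1 of the wild type were male and the others female, so that sex was unbalanced between the genotypes. Wild-type CMP replicate 6 listed another set of gene symbols than the other 11 files. Values by library are listed below for wild-type replicates 1, 6 and 8 and for enhancer-null replicates 1, 2 and 7, in that order.

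The upstream sequences of 2 blood group genes are shown because both genes were among those higher in wild-type CMP than in LSK and hold the letters AGATAA, a form of the motif read by GATA factors. They are the 250 bases before the RefSeq start in build GRCm38.p6, 5′ to 3′ on the strand of the gene, and capitals mark the motif.
Rhd, chr4:134864286-134864535 on the plus strand: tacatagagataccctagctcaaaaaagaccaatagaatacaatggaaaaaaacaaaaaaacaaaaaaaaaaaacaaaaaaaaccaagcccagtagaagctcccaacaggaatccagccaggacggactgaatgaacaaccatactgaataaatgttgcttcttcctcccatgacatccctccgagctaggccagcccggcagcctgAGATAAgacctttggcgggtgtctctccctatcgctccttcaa
Kel, chr6:41704326-41704575 on the minus strand: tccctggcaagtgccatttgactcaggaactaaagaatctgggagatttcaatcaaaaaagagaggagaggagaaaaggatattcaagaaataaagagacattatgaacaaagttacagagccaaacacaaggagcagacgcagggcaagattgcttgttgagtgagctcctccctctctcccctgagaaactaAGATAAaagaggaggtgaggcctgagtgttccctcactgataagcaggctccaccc
The match starts 43 bases before the start of Rhd and 56 bases before that of Kel. Of the 35 genes, 26 had an entry in the promoter table. AGATAA, searched on both strands, lay in the 250 bases of 6 of these (23.1%), namely Alas2, Epb42, Hbb-bs, Kel, Rhd and Trim10, and in 9.99% of all 32851 promoters. CCACACCC, a Klf-type motif, lay in 2 (Hbb-bs and Tfr2), or 7.69%, against 3.20% of all promoters. TTGCNNAA, a CEBP-type motif, lay in 1 (Hbb-bs), or 3.85%, against 9.56%. Among the 12 genes with an entry that were higher in wild-type CMP than in wild-type LSK, Rhd and Kel were the only 2 with AGATAA. A match describes these letters in this window and is not evidence of a bound site.

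The adult globins, which carry oxygen, could not be read as expression from these counts. Hba-a1 had 0 counts in every library, and Hba-a2 had 0 to 10. Hbb-bs had 4 to 55 counts and Hbb-bt 0 counts in the 11 files that list them. Of the 75-base windows of the Hba-a2 transcript, 81.0% also occur in Hba-a1, and 62.2% of those of Hba-a1 occur in Hba-a2. For the beta pair the shares were 64.3% of Hbb-bs and 56.6% of Hbb-bt. In each library 14.5% to 19.7% of all counts stood in the row of reads without a unique alignment, and the part of globin reads in that row was not tested. A row named Beta-s, found in wild-type CMP replicate 6 alone, held 740 counts and was not joined to Hbb-bs.

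Between wild-type LSK and wild-type CMP, many of the red cell genes were higher in CMP. Of 31 genes tested, 17 were higher in wild-type CMP and 0 were lower (edgeR's quasi-likelihood test, Benjamini-Hochberg adjusted p under 0.05), where 2.18% of all 12029 genes tested were called higher and 2.06% lower. Among these 17, the greatest log2 fold changes were those of Ermap, Kel, Add2, Rhag, Sptb, Car1 and Cldn13, which encode blood group and membrane proteins and, with Car1, a carbonic anhydrase. All of these except Car1 had a wild-type LSK library under the expression cutoff of 0.604 CPM. The size and order of their fold changes therefore depend on low LSK counts. The log2 fold change was above 0 for 30 of the 31 and its median was 2.65, beside -0.00558 over all genes tested. By the 3 libraries of each group, 25 genes lay higher in CMP without overlap and 0 lower, as did 16.3% and 17% of all genes tested. DESeq2 called 19 higher and 0 lower, where it called 6.04% and 7.32% of all genes. Of the 31, 14 reached the expression cutoff in fewer than 3 LSK libraries and could enter through CMP alone, 7 of the called genes among them, so the count describes the set and does not stand as support for it. In bulk samples fewer cells of a type and less RNA per cell cannot be told apart. The count fell to 4, 4 and 2 without wild-type CMP replicate 1, 6 or 8 and to 10 without wild-type LSK replicate 8. Beside it, the summed level of late neutrophil markers ran from 26.4 to 2076 CPM in wild-type CMP and from 125 to 1328 CPM in wild-type LSK, and of mast cell and basophil markers from 43.2 to 237 and from 6.77 to 13.6 CPM. The 5 monocyte markers summed to 842 to 967 CPM in wild-type CMP and 27.6 to 36.6 CPM in wild-type LSK, with 4 of the 5 called higher in CMP, and the part of any of these cells in the result was not tested.

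**Figure D1:**
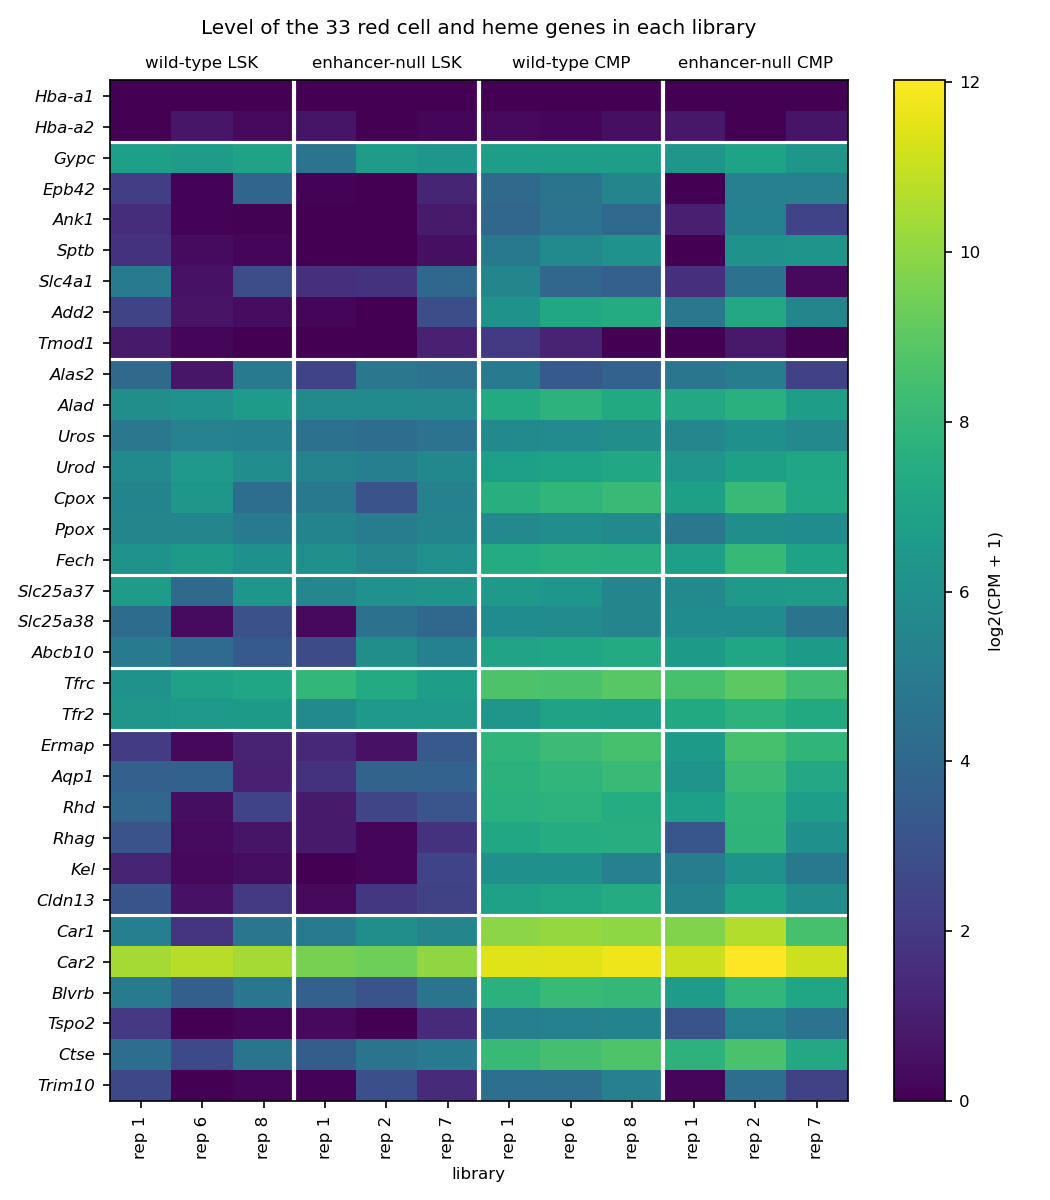
Levels of the red cell and heme genes as log2(CPM + 1) in the 12 libraries (columns, by group and replicate), with genes in rows ordered by role. The blood group and channel genes run from 10.9 to 46.2 CPM in sum in wild-type LSK and from 964 to 1201 CPM in wild-type CMP.

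The blood group and channel proteins passed together, 6 of 6. Of these only Aqp1 reached the expression cutoff of 0.604 CPM in every wild-type LSK library. The others could enter the test through CMP alone, so their count describes the set and does not stand as support for it. Ermap, an erythroid membrane-associated protein of the Scianna blood group (ENSMUSG00000028644.16, chr4:119175457-119190011 in GRCm38, minus strand), was at 3.30, 0.210 and 1.25 CPM in wild-type LSK and at 229, 299.9 and 373 CPM in wild-type CMP. Its mean rose from 1.59 ± 1.57 to 300.5 ± 71.7 CPM (SD, n = 3 each), a log2 fold change of 7.49 (SE 0.795, adjusted p = 0.00655), and it passed the test in all 12 alternatives run. The groups were far apart for Ermap, with every CMP library above every LSK library. Kel, the metalloprotease of the Kell blood group, was at 1.34, 0.210 and 0.376 CPM in LSK and at 63.7, 65.2 and 37.0 CPM in CMP (log2 fold change 6.40, SE 0.825, adjusted p = 0.0117). Rhag, the Rh-associated glycoprotein that carries gas and ammonium, was at 7.39, 0.280 and 0.627 CPM in LSK and at 144, 174 and 178 CPM in CMP (5.87, SE 1.11, adjusted p = 0.0324). Its Rh partner Rhd was at 14.6, 0.351 and 4.39 CPM in LSK and at 201, 217 and 173 CPM in CMP (4.95, SE 1.02, adjusted p = 0.0421). In each of these 4 genes wild-type LSK replicate 1 was the highest and replicate 6 the lowest of the LSK libraries, and all 3 CMP libraries lay above them. Among all genes averaging 1 CPM or more in wild-type LSK, replicate 1 was the highest for 28.4% and replicate 6 the lowest for 44.7%. Cldn13, a claudin, was at 7.59, 0.491 and 3.13 CPM in LSK and at 117, 136 and 168 CPM in CMP (5.24, SE 0.847, adjusted p = 0.0210). Aqp1, the water channel of the red cell, was at 12, 12.2 and 1.13 CPM in LSK and at 211, 239.8 and 272 CPM in CMP (4.87, SE 0.781, adjusted p = 0.0205). No LSK library of either gene reached the lowest CMP library.

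The enzymes and other proteins of the programme passed in 4 of 6. Car1 and Car2, neighbouring carbonic anhydrase genes on chromosome 3, had the highest CMP levels per length of any of the 33 genes, 830.1 and 1247 CPM per kb in wild-type CMP. Car1 (chr3:14766216-14808368) was at 35.9, 2.45 and 25.0 CPM in wild-type LSK and at 970.1, 1124 and 1014 CPM in wild-type CMP (log2 fold change 5.65, SE 0.85, adjusted p = 0.018). Car2 (chr3:14886273-14900770) was already high in LSK, at 1347, 1688 and 1340.2 CPM, and at 2817, 2819.7 and 3421 CPM in CMP (1.09, SE 0.134, adjusted p = 0.0104). So the neighbours differed in how far they were apart between the cell types, 50.2-fold for Car1 and 2.13-fold for Car2, and this contrast of the 2 genes was not itself tested. Blvrb, which reduces biliverdin, was at 29.7, 11.3 and 25.1 CPM in LSK and at 203, 277 and 260.5 CPM in CMP (3.52, SE 0.379, adjusted p = 0.00655), and it passed in all 12 alternatives as Ermap did. Ctse, the aspartic protease cathepsin E, was at 19.6, 5.26 and 24.7 CPM in LSK and at 275, 352 and 415 CPM in CMP (4.43, SE 0.554, adjusted p = 0.011). All 4 of these genes were separated between the cell types. Tspo2, an erythroid membrane protein of the translocator protein family, did not pass (log2 fold change 5.20, SE 1.54, adjusted p = 0.109) at 3.01, 0 and 0.125 CPM in LSK and 35.3, 38.5 and 42.1 CPM in CMP. Trim10, a gene of terminal erythroid differentiation, was at 5.03, 0 and 0.125 CPM in LSK and at 19.7, 21.0 and 36.7 CPM in CMP, and did not pass either. Both were separated too, with the LSK libraries ranging from 0 to several CPM.

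**Figure D2:**
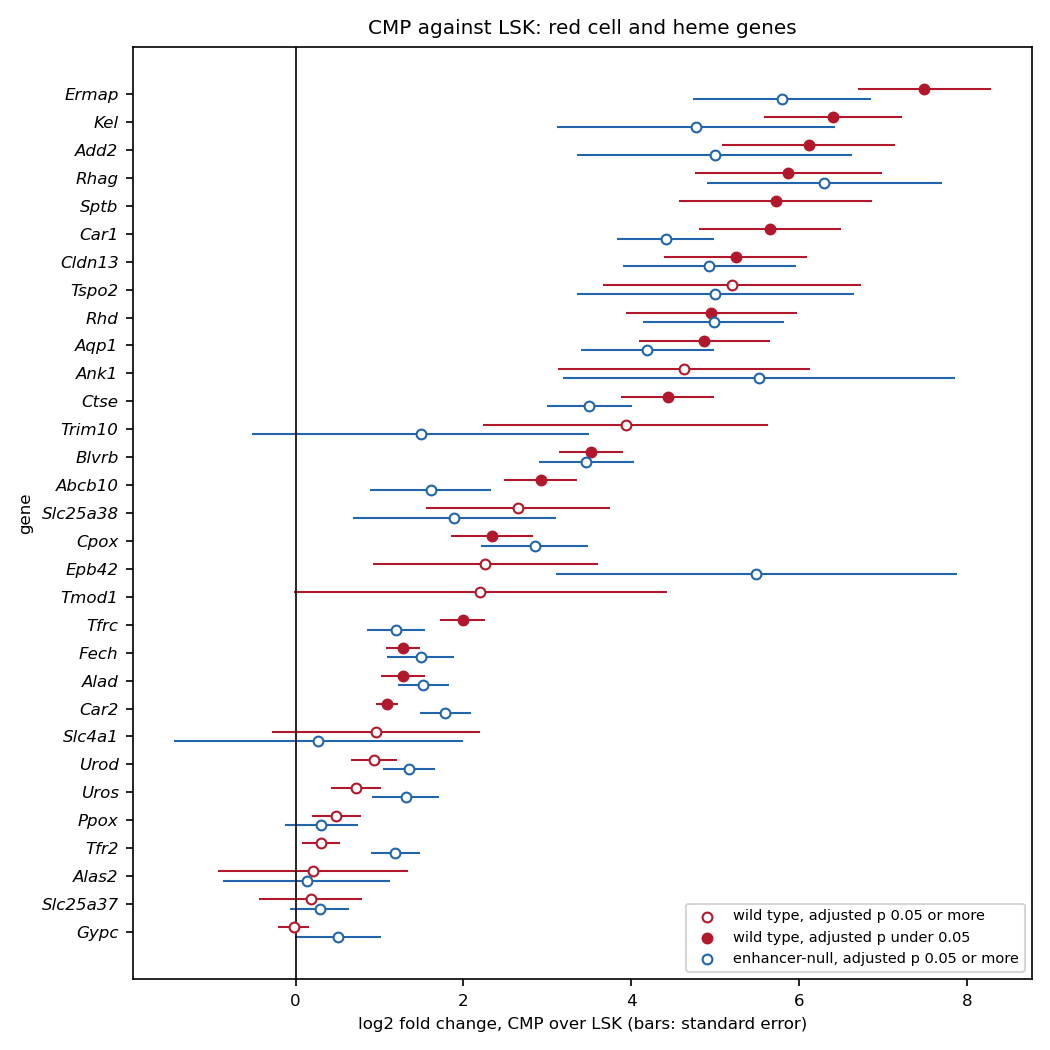
Log2 fold change of CMP over LSK for each red cell and heme gene tested, with bars of 1 standard error, in the wild type (red) and in the enhancer-null mice (blue). Filled points passed at an adjusted p under 0.05 and open points did not. The wild-type values run from -0.02 (Gypc) to 7.49 (Ermap).

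In heme synthesis, 3 of 7 listed enzymes passed and the first enzyme of the erythroid pathway did not. Alas2, the erythroid form of the rate-limiting first step, was at 16.6, 0.631 and 28.8 CPM in wild-type LSK and at 28.9, 9.66 and 12.8 CPM in wild-type CMP. It did not pass the test (log2 fold change 0.21, SE 1.13, adjusted p = 0.943), and its libraries overlapped. Alad, the second enzyme, was at 60.4, 66.6 and 98.6 CPM in LSK and at 159.8, 217 and 156 CPM in CMP (1.28, SE 0.26, adjusted p = 0.0408). Cpox, which oxidises coproporphyrinogen, was at 41.4, 80.2 and 19.3 CPM in LSK and at 182, 242 and 270.0 CPM in CMP (2.34, SE 0.488, adjusted p = 0.0441). Fech, which inserts iron into the ring in the last step, was at 70.1, 92.7 and 65.0 CPM in LSK and at 170.0, 189 and 180.3 CPM in CMP (1.28, SE 0.207, adjusted p = 0.0205). These 3 enzymes lay without overlap between the cell types. Urod (log2 fold change 0.935), Uros (0.719) and Ppox (0.486) were separated as well and did not pass, with adjusted p of 0.106, 0.221 and 0.40. Per length, the enzymes shown stood in wild-type CMP at 7.12 CPM per kb for Alas2 and 19.3 for its housekeeping counterpart Alas1, 94.9 for Alad, 15.6 for Uros, 48.3 for Urod, 34.8 for Cpox, 11.8 for Ppox and 13 for Fech. Alad thus stood highest and Alas2 lowest of these enzymes per length. Without division by length the wild-type CMP means were 231.5 CPM for Cpox, 179.9 for Fech, 177.5 for Alad and 17.1 for Alas2. The first place of Alad therefore depended on the exon lengths used.

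**Figure D3:**
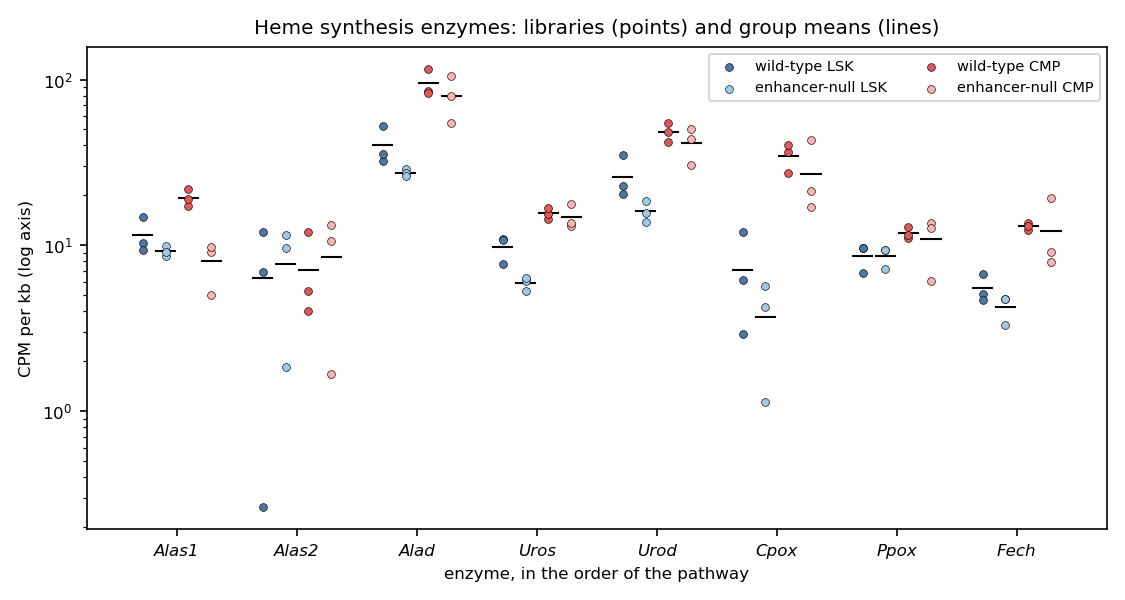
Levels per length (CPM per kb of exon, log axis) of enzymes of heme synthesis in the order of the pathway, with a point for each library and a line for each group mean. Alad is the highest of those shown in wild-type CMP, at 94.9 CPM per kb on average.

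Iron entry and mitochondrial transport showed 1 of 2 and 1 of 3 genes passing. Tfrc, the transferrin receptor of iron uptake, was at 69.8, 119 and 136 CPM in wild-type LSK and at 399.6, 379.8 and 475 CPM in wild-type CMP (log2 fold change 1.99, SE 0.267, adjusted p = 0.0128). Tfr2, a second transferrin receptor that takes part in iron sensing, was at 80.3, 91.2 and 93.6 CPM in LSK and at 80.9, 121 and 116 CPM in CMP, which overlap, and did not pass (0.30, SE 0.229, adjusted p = 0.518). Abcb10, a mitochondrial inner membrane transporter of the red cell line, was at 31.1, 17.5 and 9.52 CPM in LSK and at 128, 139 and 163 CPM in CMP (2.92, SE 0.436, adjusted p = 0.0175). Slc25a38, which imports glycine for the first heme step, was at 18.2, 0.280 and 7.02 CPM in LSK and at 57.1, 55.1 and 42.7 CPM in CMP without overlap (adjusted p = 0.228). Slc25a37, the mitochondrial iron importer mitoferrin, was at 99.0, 16.3 and 79.6 CPM in LSK and at 90.2, 80.1 and 43.1 CPM in CMP, and these libraries overlapped.

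The membrane skeleton passed in 2 of 7. The 2, Add2 and Sptb, each had wild-type LSK libraries under the expression cutoff of 0.604 CPM and could enter through CMP alone. Add2, the beta adducin that caps actin, was at 4.55, 0.561 and 0.313 CPM in wild-type LSK and at 71.1, 145.02 and 169 CPM in wild-type CMP (log2 fold change 6.11, SE 1.03, adjusted p = 0.0235). Sptb, the beta spectrin of the red cell, was at 2.42, 0.280 and 0.125 CPM in LSK and at 28.3, 51.1 and 71.9 CPM in CMP (5.72, SE 1.15, adjusted p = 0.0399). Ank1, which ties spectrin to band 3, was at 2.02, 0.0701 and 0.0627 CPM in LSK and at 14.6, 22.6 and 16.2 CPM in CMP, without overlap but not passing (4.63, adjusted p = 0.135). The other 4 genes of the skeleton did not pass. Slc4a1, band 3, was at 31.3, 0.491 and 6.20 CPM in LSK and at 44.3, 14.6 and 11.9 CPM in CMP. Gypc, glycophorin C, was at 109, 99.6 and 123 CPM in LSK and at 105, 105 and 107 CPM in CMP, the single negative log2 fold change (-0.02, adjusted p = 0.962). Tmod1, which caps the pointed end of actin, did not exceed 3.17 CPM in any wild-type library. Epb42, protein 4.2 of the skeleton, was at 3.55, 0.0701 and 14.2 CPM in LSK and at 16.6, 24.0 and 42.7 CPM in CMP, with every CMP library above the LSK libraries.

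In the enhancer-null mice the same step from LSK to CMP gave 0 calls among 29 genes tested by edgeR, as it did among all 11267 genes tested (0%). At an unadjusted p under 0.05 there were 20 of the 29, beside 6.92% of all genes, and DESeq2 called 18 higher and 0 lower, beside 0.923% and 0.896% of all genes. All 29 log2 fold changes were above 0, with a median of 1.89 beside -0.00723 over all genes, and 22 lay higher and 0 lower without overlap, as did 8.38% and 8.48% of all genes. Of the 29, 10 reached the expression cutoff in fewer than 3 LSK libraries and could enter through CMP alone. These counts therefore describe the set and do not stand as support for it. The genotypes share no libraries in these 2 comparisons, and each gene's difference between them is the interaction term given below. Car1 was at 29.5, 59.5 and 43.0 CPM in enhancer-null LSK and at 854, 1599 and 366 CPM in enhancer-null CMP (log2 fold change 4.41, SE 0.578, adjusted p = 0.186). Ctse was at 10.8, 24.0 and 30.4 CPM in LSK and at 217, 377 and 154 CPM in CMP (3.50, SE 0.508, adjusted p = 0.186). Blvrb was at 11.7, 7.52 and 23.6 CPM in LSK and at 94.6, 250.01 and 136.5 CPM in CMP (3.46, SE 0.566, adjusted p = 0.195). Each of the 3 had all CMP libraries above all LSK libraries. Per length, Car2 was again highest of the listed genes in both cell types of the enhancer-null mice, at 339 CPM per kb in LSK and 1177 in CMP.

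Between the genotypes in CMP, 0 of the 31 red cell genes tested passed edgeR's quasi-likelihood test, where 0.435% of all 11722 genes were called higher and 0.0938% lower in enhancer-null CMP. At an unadjusted p under 0.05 there was 1 of 31, Tfr2, beside 12.6% of all genes, and DESeq2 called 0, where it called 3.45% of all genes higher and 1.91% lower. The log2 fold change was below 0 for 28 of the 31, with a median of -0.31 beside -0.02 over all genes. Libraries of the genotypes did not overlap for 1 gene higher (Tfr2) and 1 lower (Trim10), where 11.1% and 12.5% of all genes did not. No alternative run, DESeq2 and leaving out any library included, called a listed gene in this comparison.

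Tfr2 had the smallest p, at 80.9, 121 and 116 CPM in wild-type CMP and 156, 220.3 and 159 CPM in enhancer-null CMP. Its mean was 106 ± 22.1 and 178 ± 36.4 CPM (SD, n = 3 each), a log2 fold change of 0.75 (SE 0.251, adjusted p = 0.28), and every enhancer-null library lay above every wild-type one. Cldn13 was at 117, 136 and 168 CPM in wild-type CMP and at 40.9, 123 and 58.3 CPM in enhancer-null CMP (-0.92, SE 0.417, adjusted p = 0.43). Blvrb was at 203, 277 and 260.5 CPM against 94.6, 250.01 and 136.5 CPM (-0.62, SE 0.353, adjusted p = 0.56). For both genes the enhancer-null replicate 2 came within the wild-type range and the other 2 libraries did not. Trim10 was at 19.7, 21.0 and 36.7 CPM in wild-type CMP and at 0.116, 19.4 and 3.97 CPM in enhancer-null CMP (-1.71, SE 1.34, adjusted p = 0.709).

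**Figure D4:**
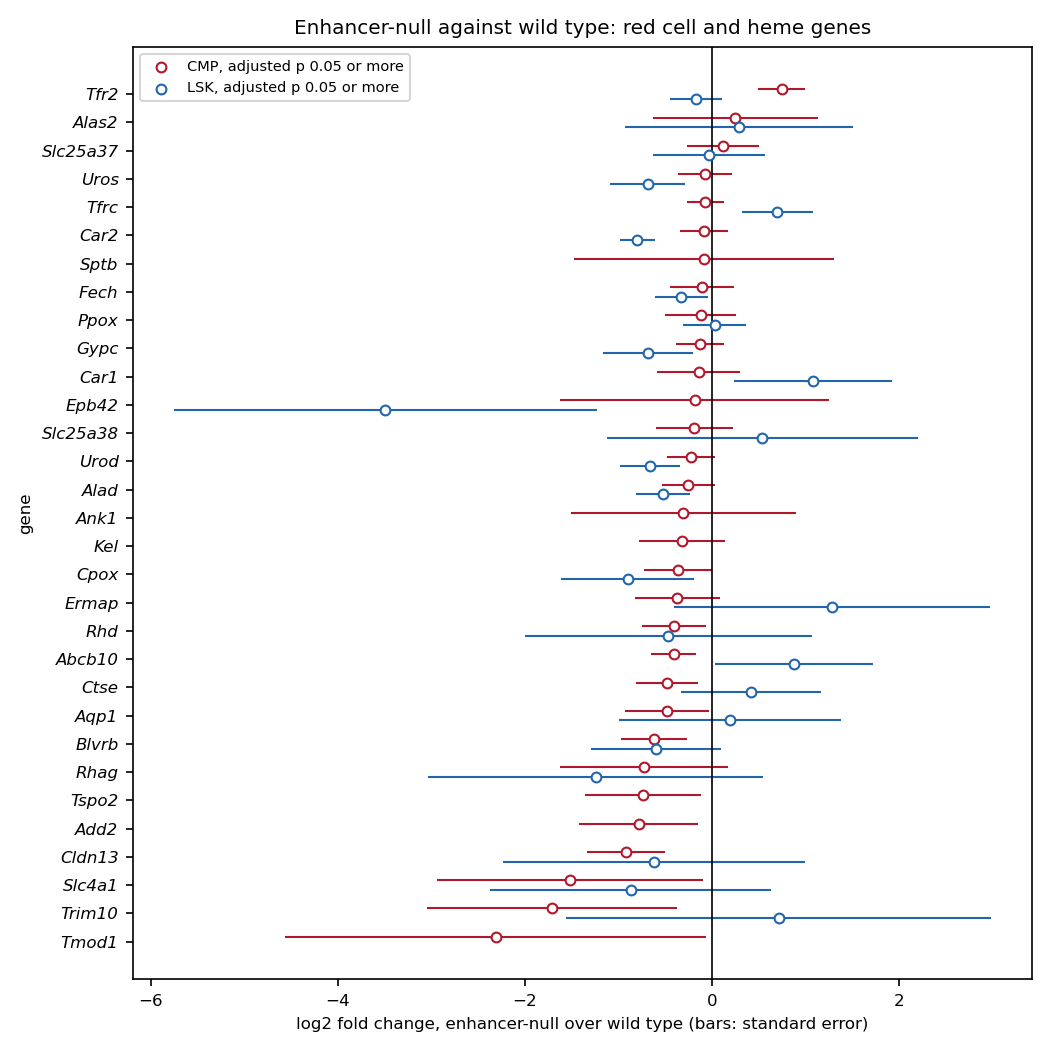
Log2 fold change of enhancer-null over wild type for each red cell and heme gene tested, with bars of 1 standard error, in CMP (red) and LSK (blue). In CMP 28 of the 31 values lie below 0, and none passed the test.

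The enhancer-null CMP libraries were far apart from each other in these genes. The 33 genes summed to 5080 CPM in replicate 1, 10241 CPM in replicate 2 and 5095 CPM in replicate 7, while wild-type CMP ran from 7074 to 8522 CPM. Within these enhancer-null sums Car2 alone stood at 2162, 4166 and 2228 CPM and Car1 at 854.5, 1599 and 366 CPM. Enhancer-null replicate 2 was the highest of its group in 26 of the 30 listed genes that averaged 1 CPM or more, a place it held for 28.6% of all such genes, and the lowest in 0. Replicate 1 was the lowest in 19 of the 30, a place it held for 43.4% of all such genes, and replicate 7 in 11. Sptb was at 0, 68.0 and 74.2 CPM across enhancer-null CMP, Rhag at 8.26, 227 and 64.4 CPM and Slc4a1 at 2.21, 22.2 and 0.248 CPM. Counting all genes that averaged 10 CPM or more, replicate 1 lacked any read for 2.07% and replicate 2 for 0.0795%. Over genes averaging 10 CPM or more, the median coefficient of variation was 51.3% for the listed genes and 36.4% for all genes in enhancer-null CMP, and 17.1% and 19.2% in wild-type CMP. In the same libraries the mast cell and basophil markers summed to 1407 to 1780 CPM, against 43.2 to 237 CPM in wild-type CMP. Of these, Cpa3 (908 to 1350 CPM), Gzmb (276 to 656 CPM) and Fcer1a were higher without overlap. Prss34 was at 0 CPM, and the means of Mcpt8 and Ms4a2 were below those of wild-type CMP. The 6 megakaryocyte markers summed to 113 to 243 against 67.6 to 98.9 CPM. Itga2b was higher without overlap, at 95.2 to 232 against 15.6 to 39.9 CPM. Pf4 and Vwf were lower without overlap, Pf4 at 0.465 to 26.5 against 35.1 to 45.8 CPM. The 5 monocyte markers summed to 43.0 to 201 against 842 to 967 CPM. Of the 5, 4 were lower without overlap, and Ccr2 overlapped, at 4.09 to 182 against 61.8 to 120 CPM. The part of those cells in the red cell gene levels was not tested.

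**Figure D5:**
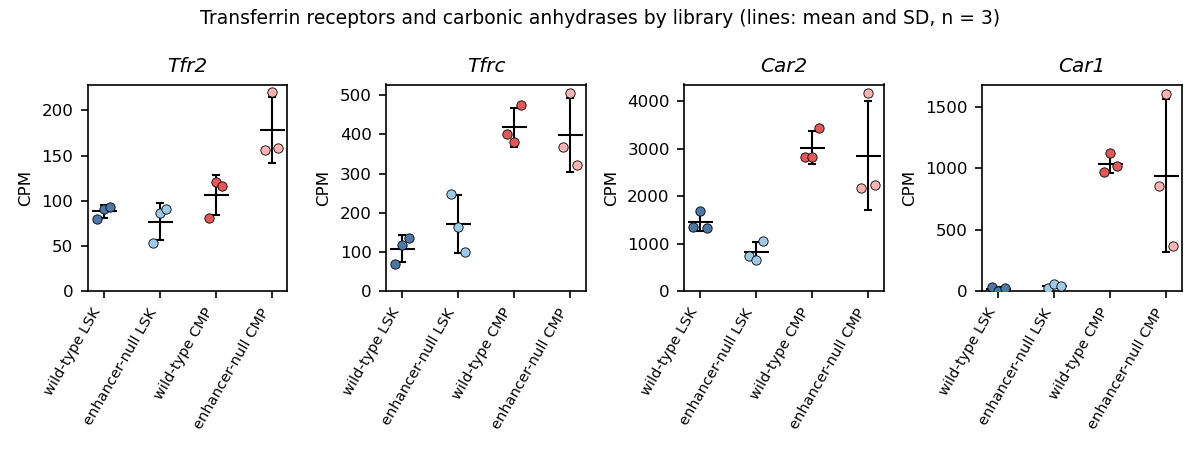
Levels of Tfr2, Tfrc, Car2 and Car1 in CPM (vertical axes, from 0) by library (points) in the 4 groups, with the mean and SD of each group (lines, n = 3). In enhancer-null CMP, Car1 ran from 366 to 1599 CPM, while wild-type CMP held 970.1 to 1124 CPM.

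In LSK, 25 of the listed genes were tested and 0 passed by edgeR, where 0.0774% of all 11621 genes were called higher and 0.0258% lower in enhancer-null LSK. At an unadjusted p under 0.05 there was 1 of 25, Car2, beside 7.92% of all genes, and DESeq2 called it lower and 0 genes higher, beside 1.16% and 1.15% of all genes. The log2 fold change was above 0 in 10 and below 0 in 15, with a median of -0.33 beside -0.00981 over all genes. In all, 5 genes were lower without overlap in enhancer-null LSK, namely Car2, Urod, Alad, Uros and Gypc, and 0 were higher, where 10.6% of all genes were lower and 8.49% higher. Car2 was at 1347, 1688 and 1340.2 CPM in wild-type LSK and at 743, 657 and 1060.4 CPM in enhancer-null LSK. Its mean was 1458 ± 199 and 819.9 ± 213 CPM (SD, n = 3 each), and edgeR's quasi-likelihood test gave a log2 fold change of -0.80 (SE 0.187, adjusted p = 0.278), DESeq2 an adjusted p of 0.00131. Urod was at 52.5, 90.5 and 58.8 CPM in wild-type LSK and at 40.5, 35.8 and 48.1 CPM in enhancer-null LSK (-0.66, SE 0.322, adjusted p = 0.668). Tfrc was at 69.8, 119 and 136 CPM in wild-type LSK and at 248, 165 and 101 CPM in enhancer-null LSK, with overlap (0.70, SE 0.381, adjusted p = 0.697). Gypc was at 109, 99.6 and 123 CPM in wild-type LSK and at 23.4, 99.2 and 79.9 CPM in enhancer-null LSK, where the highest enhancer-null library was just under the lowest wild-type one. In enhancer-null LSK the mast cell and basophil markers summed to 315 to 668 CPM, against 6.77 to 13.6 CPM in wild-type LSK. Of these, Cpa3 (298 to 577 against 4.89 to 13.3 CPM) and Gzmb (10.9 to 77.4 against 0.351 to 1.28 CPM) were higher without overlap. Prss34, Mcpt8, Ms4a2 and Fcer1a overlapped between the genotypes, and the mean of Prss34 was below that of wild-type LSK. The granulocyte-monocyte progenitor markers summed to 1304 to 2472 and 503 to 714 CPM. Of that list Mpo was higher without overlap, at 1200 to 2285 against 307 to 443 CPM. Elane, at 0.0198 to 11.5 against 11.7 to 84.8 CPM, and Prtn3, at 97.5 to 164 against 176 to 194 CPM, were lower without overlap. The part of those cells was not tested. The 8 genes not tested in LSK were Hba-a1, Hba-a2, Ank1, Sptb, Tspo2, Kel, Add2 and Tmod1.

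The interaction, which asks whether the genotype effect differs between CMP and LSK, called 0 of 31 listed genes, where 0.221% of all 12686 genes had a greater and 0.0709% a smaller genotype effect in CMP. At an unadjusted p under 0.05 there were 2 of 31, Tfr2 and Car2, beside 7.63% of all genes, and DESeq2 called 0, beside 0.938% of all genes greater and 0.568% smaller. Of the 31 values, 14 were above 0 and 17 below, with a median of -0.0125 beside 0.0115 over all genes. For Tfr2 the genotype effects of 0.75 in CMP and -0.17 in LSK differed by 0.95 (SE 0.372, adjusted p = 0.538). For Car2 those of -0.08 and -0.80 differed by 0.75 (SE 0.339, adjusted p = 0.64), and for Tfrc those of -0.07 and 0.70 differed by -0.73 (SE 0.444, adjusted p = 0.773). This test uses the same libraries as the 2 genotype comparisons.

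The other genes of the pathway were taken from 2 further lists. Of 21 other genes of heme and iron handling, 3 were higher in wild-type CMP than in LSK and 0 lower (2.18% and 2.06% of all genes tested), with a median log2 fold change of 0.786. Among them were Glrx5, a mitochondrial glutaredoxin of iron-sulfur clusters (1.68, SE 0.175, adjusted p = 0.00649) and Tmem14c, which moves a heme precursor into the mitochondrial matrix (2.01, SE 0.239, adjusted p = 0.00958). Glrx5 was at 110.2, 86.9 and 117 CPM in wild-type LSK and at 326, 309 and 343 CPM in wild-type CMP, and its libraries did not overlap. By edgeR 0 of the 21 passed in either genotype comparison, in the enhancer-null cell type comparison or in the interaction. For genotype in CMP 8 of the 21 had an unadjusted p under 0.05, beside 12.6% of all genes, and DESeq2 called 1 higher and 1 lower, beside 3.45% and 1.91%. For genotype in LSK these numbers were 1 (7.92% of all genes), 1 (1.15%) and 0 (1.16%). In the enhancer-null cell type comparison 9 had an unadjusted p under 0.05 (6.92% of all genes) and DESeq2 called 5 higher (0.923%), and the interaction gave 2 (7.63%) and 0. The nearest was Ncoa4, the ferritin autophagy receptor, at 294.9, 262 and 272 CPM in wild-type CMP and 679, 519 and 503 CPM in enhancer-null CMP (1.03, SE 0.164, adjusted p = 0.0516).

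Of 28 other red cell genes in the table, 22 were tested in the wild type, and 6 were higher and 1 lower in CMP than in LSK, beside 2.18% and 2.06% of all genes tested. The 6 were Fam132a, which encodes the secreted protein adipolin (log2 fold change 3.13, adjusted p = 0.00293), Gfi1b (2.36, adjusted p = 0.0129), Cited4 (6.88, adjusted p = 0.0129), Sphk1 (6.50, adjusted p = 0.0175), Epor, the erythropoietin receptor (6.24, adjusted p = 0.0223), and Klf1, the erythroid Kruppel-like factor (5.32, adjusted p = 0.0320). Klf1 was at 6.57, 0.140 and 8.58 CPM in wild-type LSK and at 198, 220.0 and 181 CPM in wild-type CMP. Cited4, Sphk1 and Epor had 2 to 5 counts in wild-type LSK replicates 6 and 8, and Klf1 had 2 in replicate 6. Those libraries lay under the expression cutoff of 0.604 CPM for these genes, which could thus enter the test through CMP alone. Gata1, the erythroid GATA factor, just missed the threshold (4.90, SE 1.08, adjusted p = 0.0508). The gene that went the other way was Nfe2, a bZIP factor of red cell and platelet formation. Nfe2 was at 278, 264 and 241 CPM in wild-type LSK, at 134, 96.6 and 134 CPM in wild-type CMP, at 266, 199 and 229.7 CPM in enhancer-null LSK and at 320.2, 267 and 339 CPM in enhancer-null CMP. It was lower in wild-type CMP than in LSK (-1.06, SE 0.192, adjusted p = 0.0282) and higher in enhancer-null than in wild-type CMP (1.34, SE 0.205, adjusted p = 0.0459), the 1 of 22 to pass there by edgeR, where 0.435% of all genes were higher. This genotype call was lost when any single CMP library was left out (adjusted p = 0.0563 to 0.213) and with sex as a covariate (adjusted p = 0.106). For genotype in CMP, 4 of the 22 had an unadjusted p under 0.05 (12.6% of all genes), DESeq2 called 3 higher (3.45%), and 6 lay higher without overlap (11.1%). The 3 that DESeq2 called were Nfe2, Gfi1b and Apoe. Gfi1b, a transcriptional repressor needed for red cell and platelet formation, was at 77.8, 112 and 115 CPM in wild-type CMP and at 203, 230.5 and 217 CPM in enhancer-null CMP (log2 fold change 1.09, SE 0.217, adjusted p = 0.0888 by edgeR and 0.000622 by DESeq2). Apoe, a lipid carrier, was at 66.6, 46.8 and 34.9 CPM in wild-type CMP and at 185, 134 and 94.5 CPM in enhancer-null CMP (1.48, SE 0.359, adjusted p = 0.153 by edgeR and 0.00741 by DESeq2). Both lay higher in every enhancer-null CMP library. For genotype in LSK 0 of 20 of these genes passed, with 2 at an unadjusted p under 0.05 (7.92% of all genes) and 1, Gfi1b, called higher by DESeq2 (1.15%). Gfi1b was at 18.3, 26.4 and 16.1 CPM in wild-type LSK and at 79.3, 42.1 and 60.1 CPM in enhancer-null LSK (1.61, SE 0.394, adjusted p = 0.302 by edgeR and 0.0241 by DESeq2). In the enhancer-null cell type comparison 0 of 22 passed, with 14 at an unadjusted p under 0.05 (6.92% of all genes) and 12 called higher by DESeq2 (0.923%).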

How the data were processed

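Per the labels' protocols, the sorted cells' RNA was isolated with Trizol plus a carrier, turned into cDNA by a low-input kit and read from both ends over 75 bases. Each library's deposited file gives whole, unnormalized read counts by gene symbol. Per the submitters' processing notes the authors used TopHat2 2.0.4, TopHat, Bowtie and HTSeq with the mm10 build. Which annotation and strand option were used is not stated, so reads of overlapping genes or near-identical copies may be split or lost.

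The 12 files were joined on 22779 identical symbols and 606 older names from the RefSeq table of GRCm38.p6. There were 23456 symbols in the file of wild-type CMP replicate 6 and 24420 in each of the other 11, and a shared symbol may cover other exons there. Rows naming no gene held 37.2% to 46.9% of the counts and were left out. Not joined were 0.0735% to 0.297% of gene counts. A floor of 3 counts is 0.0612 to 0.487 CPM, which covers counting error only.

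Counts were tested in R 4.3.3 with edgeR 4.0.16 (robust quasi-likelihood test, TMM, default filter with a minimum count of 10). Tests were two-sided, p-values were adjusted by Benjamini-Hochberg across all genes tested, and the threshold was 0.05. Each pairwise fit used the libraries of its 2 groups, and the interaction all 12. The standard error is the log2 fold change divided by the root of F. DESeq2 1.42.0 was an alternative. Other alternatives were other scalings, no filter, 1 fit over all groups, sex as a covariate, the replicate block and leaving out each library. On simulated counts for the 11722 genes of the CMP genotype comparison, the share of simulated log2 changes of 1, 2, 3 and 4 that edgeR found was 0%, 22%, 48% and 56%. For the 12029 genes of the wild-type cell type comparison the shares were 8%, 20%, 58% and 66%.

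The values of 1 gene of the further lists are not reported here. The genes and lists were chosen with earlier results of these data known. A fold change with its test was named for listed genes with an adjusted p under 0.05 and for the 3 with the smallest p in each comparison, and values by library for those and for 1 or 2 of each role. Fold changes of Tspo2, Trim10, Ank1, Alas2, Urod, Uros, Ppox, Gypc and Slc25a38, and the values of genes outside the set, were chosen after their values were seen. Gene positions and exon lengths came from a GENCODE annotation of GRCm38, and promoters from RefSeq.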

Additional observations from a re-analysis of the deposited data

Results flagged for a closer look

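Nfe2 stood out because its genotype effect differed between the cell types. The difference of the genotype effects, CMP minus LSK, was 1.52 on the log2 scale (SE 0.261, adjusted p = 0.0318 by edgeR's quasi-likelihood test), and 5 of 17 alternatives passed, with adjusted p up to 0.109. Nfe2 also moved in opposite directions between the cell types of the genotypes. Its wild-type CMP libraries all lay below the wild-type LSK libraries (log2 fold change -1.06, adjusted p = 0.0282), and its enhancer-null CMP libraries all lay above the enhancer-null LSK libraries (0.39, SE 0.18, adjusted p = 0.765). The interaction test above is the test of that contrast.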

How the results depend on the processing

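The count of 17 red cell genes higher in wild-type CMP than in LSK was 10 with no expression filter and 2 to 20 when each library was left out, and 14 to 19 under DESeq2, the other scalings and 1 fit over all groups. Under the replicate block it was 7. Same-numbered CMP and LSK libraries had deviations correlated at 0.107, -0.0471 and 0.0426 in the wild type and at 0.0535, -0.00189 and 0.0262 in the enhancer-null mice, so the numbers were not taken to pair the samples, and not every library correlated best with its own number. The sex read from the counts was the same in both cell types of every number, and the labels do not say whether they share a mouse. No paired analysis was run for the genotype comparisons, because the labels do not pair wild-type with enhancer-null libraries. Ermap, Blvrb, Glrx5 and Fam132a passed in all 12 alternatives of the wild-type comparison, and Cpox in 4. In the enhancer-null cell type comparison the count of 0 was 18 under DESeq2, 3 with no expression filter, 6 in 1 fit over all groups, 0 under the replicate block and 0 to 0 when each library was left out. In LSK the count of 0 lower in enhancer-null was 1 under DESeq2. The CMP genotype and interaction counts were 0 under every alternative run, and no direction reversed. The cause of these shifts was not tested. With 3 libraries a group and a biological coefficient of variation of 0.719 to 0.823, few changes of 1 on the log2 scale were found in simulated counts, 0% to 8% by comparison. In the enhancer-null cell type comparison (11267 genes) the shares found at 2, 3 and 4 were 30%, 44% and 44%.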

Other observations

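The embryonic globin Hbb-y had 57 and 26 counts in enhancer-null CMP replicates 1 and 2 and 0 in replicate 7. In enhancer-null LSK it had 0, 0 and 10 counts, and it had 0 counts in all wild-type libraries. The minor globin row Hbq1b had 32, 9 and 0 counts in wild-type CMP, 30, 0 and 0 in wild-type LSK, 0, 12 and 0 in enhancer-null CMP and 0, 0 and 7 in enhancer-null LSK.

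Alas1, the housekeeping enzyme of the first heme step, was at 106, 134 and 117 CPM in wild-type CMP and at 56.4, 31.1 and 60.7 CPM in enhancer-null CMP. Its libraries did not overlap, and edgeR's quasi-likelihood test gave a log2 fold change of -1.27 (SE 0.319, adjusted p = 0.168), DESeq2 an adjusted p of 0.0195. Enhancer-null replicate 2, the highest of its group in most of the listed red cell genes, was the lowest of its group for Alas1.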
